A study of Mus musculus with 27 samples.

Results

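Antioxidant defence genes are described here through 10 members, taken by symbol from the count table of 55487 genes: Hmox1, Nqo1, Gclc, Gclm, Txnrd1, Srxn1, Sod1, Sod2, Cat and Gpx4. No cut on measured values was used, but earlier results of these data were known when the members were chosen. All 10 were found and all 10 were among the 17409 genes that passed a filter on low counts. They were measured by 3′ mRNA sequencing in the retinas of 27 mice, each 9 months old, with 1 library per mouse. The 7 wildtype mice carried both copies of Gne and of C3 (Gne+/+, C3+/+), and the 7 Gne+/- mice were heterozygous for a Gne knockout on a C3+/+ background. The 7 C3-/- mice lacked C3 and were Gne+/+, and the 6 Gne+/- C3-/- mice carried both alterations. The Gne enzyme catalyses the entry step of sialic acid production, and C3 is the protein on which the complement pathways converge. The study asked what lowered sialylation does to the ageing retina and whether complement is needed for it. Libraries were sequenced in 2 runs: the first held 5 wildtype, 5 Gne+/-, 4 C3-/- and 4 double-altered mice, the second 2, 2, 3 and 2.

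Cells remove reactive oxygen species in steps. Superoxide dismutases turn superoxide into hydrogen peroxide, which catalase, glutathione peroxidases and peroxiredoxins then reduce, and glutathione and thioredoxin supply the electrons. Many of these genes share a regulator, the transcription factor NRF2 (gene Nfe2l2), which its repressor KEAP1 holds at low levels until oxidants or electrophiles modify it. The retina, with its dense mitochondria, constant light and lipid-rich photoreceptor outer segments, is known for a high oxidative load.

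NRF2 binds the antioxidant response element, whose core is TGACNNNGC, and related factors bind TGACTCA. Both were searched on both strands in the 250 bases before each start in the RefSeq promoter table (GRCm38.p6), where 8 of the 10 members had an entry, with 13 windows among them; Hmox1 and Gclc had none. TGACNNNGC was found in 1 window each of Gclm, Txnrd1 and Sod1, and in 10.2% of all 32851 windows of that length. TGACTCA was found in Srxn1 only, 2 times, and in 4.46% of all windows. The stretches are shown because Gclm carried the largest difference from wildtype below and Txnrd1 and Srxn1 varied together across mice, with Sod1 as the other gene with a match. They are written 5′ to 3′ along the gene's strand, and capitals mark the match, which lies on the other strand in each. A match is a description of these letters and no evidence of binding.
Gclm, chr3:122245399-122245455, plus strand: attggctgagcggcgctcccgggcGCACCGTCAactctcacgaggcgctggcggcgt
Txnrd1, chr10:82859090-82859146, plus strand: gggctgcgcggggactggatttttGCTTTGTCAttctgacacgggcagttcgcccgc
Sod1, chr16:90220682-90220738, plus strand: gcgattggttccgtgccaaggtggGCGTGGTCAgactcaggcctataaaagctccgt
Srxn1, chr2:152105398-152105509, plus strand: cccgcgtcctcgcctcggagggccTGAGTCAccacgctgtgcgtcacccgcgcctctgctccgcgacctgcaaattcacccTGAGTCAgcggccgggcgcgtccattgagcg

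Total counts ranged from 13528183 to 34170608 per library. Counts of the members were lowest for Hmox1 (0 to 228 per library), Nqo1 (12 to 144), Gclm (36 to 1449) and Gpx4 (62 to 1542), where counting error adds to the spread between mice in the libraries at the low end. Intervals come from the spread between libraries, 1 per mouse, so error from PCR within a library enters them only through that spread. Gne and C3 followed the labels in each library: in run 1 Gne averaged 129 ± 22.5 CPM for wildtype against 47.6 ± 8.37 CPM for Gne+/- mice (SD, n = 5 and 5), and C3 averaged 162 ± 45.9 and 0.770 ± 0.577 CPM in wildtype and C3-/- mice (n = 5 and 4). CPM stands for counts per 1000000 counts of the TMM-scaled library. The rod markers of the retina were abundant (summed CPM of 10 genes 46290 to 79250 in run 1 and 30950 to 39300 in run 2). Transcripts of 4 Y-linked genes exceeded 10 CPM on average in 0 of 5 wildtype, 2 of 5 Gne+/-, 4 of 4 C3-/- and 2 of 4 Gne+/- C3-/- mice sequenced in run 1; for run 2 the numbers were 2 of 2, 2 of 2, 0 of 3 and 2 of 2. Summed markers of the lens, a neighbouring tissue, spanned 238 to 2894 CPM in Gne+/- and 74.5 to 269 CPM in wildtype libraries of run 1 (12 genes, with Cryaa and Cryba1 at 0). In whole retina, fewer cells of a type and less RNA per cell cannot be told apart.

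None of the 10 genes passed the threshold in any of the 6 genotype comparisons. Between the sequencing runs 8 of them differed, as did 59.5% of all genes. The comparisons were fitted with edgeR's quasi-likelihood test with run as a term, and p-values were adjusted over all 17409 genes with a threshold of 0.05. In Gne+/- against wildtype 0 of 10 members passed (background 0.00574% of all genes), and 0 had an unadjusted p under 0.05. In Gne+/- C3-/- against C3-/- 0 passed (background 0.00574%; 1 unadjusted, Gclm), and for the difference of these Gne effects 0 passed (background 0%; 0 unadjusted). In C3-/- against wildtype 0 passed (background 0.167%; 2 unadjusted, Gclc and Srxn1). In Gne+/- C3-/- against Gne+/- 0 passed (background 0.19%; 2 unadjusted, Gclm and Sod2), and in Gne+/- C3-/- against wildtype 0 passed (background 0.155%; 1 unadjusted, Gclm). DESeq2 and limma-voom also called 0 members in each. Unadjusted, 5.76%, 1.35%, 3.18%, 4.49%, 6.4% and 4.96% of all genes fell under 0.05 in the same order. The comparisons share control groups, so their counts are not independent of each other.

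**Figure D1:**
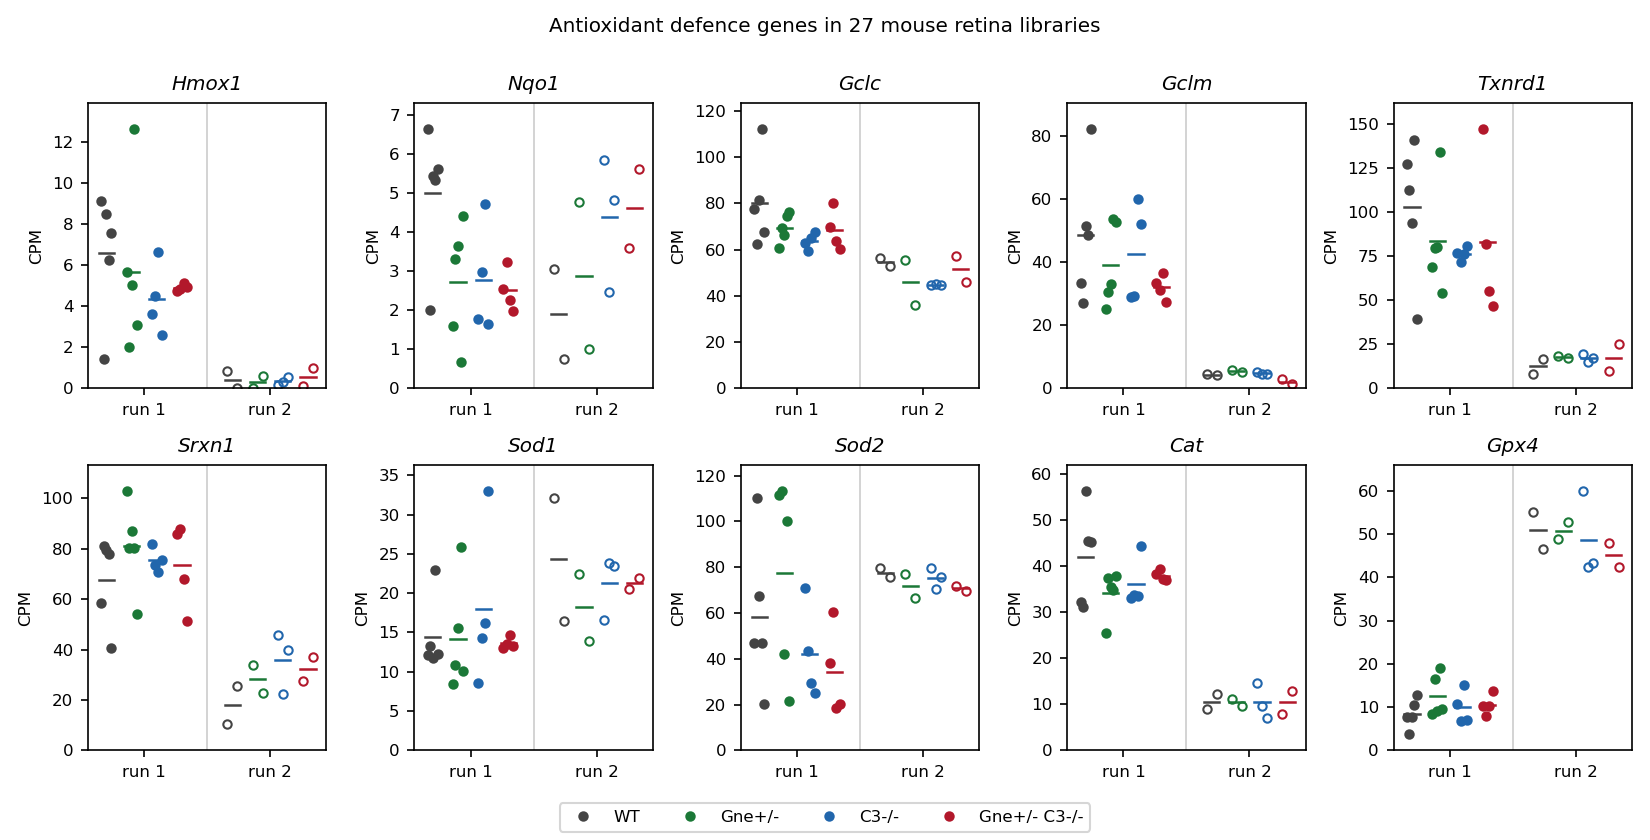
CPM (linear axes from 0) of each gene in every library, by genotype (colour) and sequencing run (filled points run 1, open points run 2), with a bar at each group mean. Genotypes overlap in run 1 for every gene, and Hmox1, Gclc, Gclm, Txnrd1 and Cat are lower and Gpx4 higher in all run 2 libraries than in all run 1 libraries.

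Glutathione is made in 2 steps, the first of which is catalysed by glutamate-cysteine ligase, an enzyme of a catalytic subunit (Gclc) and a modifier subunit (Gclm). Gclm (ENSMUSG00000028124, GRCm38 chr3:122245557-122270732, plus strand) had its lowest group mean in Gne+/- C3-/- mice in both runs. In run 2, Gne+/- C3-/- mice 7 and 8 had 2.84 and 1.40 CPM, whereas wildtype mice 7 and 8 had 4.45 and 4.26 CPM. The levels were 5.90 and 5.20 CPM for Gne+/- mice 7 and 8, and 5.22, 4.46 and 4.60 CPM for C3-/- mice 7, 8 and 9. Both Gne+/- C3-/- libraries thus lay below the other 7 libraries of run 2, on 48 and 36 counts. In run 2 this group was apart from C3-/-, Gne+/- and wildtype mice for 23.4%, 36.2% and 33.3% of all genes. No share of all genes was worked out for lying below all 7.

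In run 1, Gne+/- C3-/- mice 3, 4, 5 and 6 had 33.3, 31.2, 36.4 and 27.4 CPM. Wildtype mice 1, 2, 4, 5 and 6 measured 33.4, 27.1, 51.3, 48.6 and 82.2 CPM. The groups overlapped there, and the Gne+/- C3-/- libraries lay in the lower part of the range. Gne+/- mice 1 to 5 measured 25.1, 30.6, 32.9, 53.8 and 52.8 CPM, and C3-/- mice 1, 2, 5 and 6 measured 28.9, 29.4, 60.0 and 52.1 CPM. Both groups thus spanned nearly the same range, with a gap in the middle.

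Over both runs the log2 fold change of Gclm in Gne+/- C3-/- mice was -0.71 against wildtype (SE 0.25, 95% interval -1.23 to -0.20, edgeR adjusted p = 0.628). It was -0.63 against C3-/- (SE 0.254, adjusted p = 1) and -0.60 against Gne+/- mice (SE 0.251, adjusted p = 0.724). None of the 3 passed after adjustment over all genes. These sizes depended on the tool: limma-voom with quality weights gave -0.51, -0.32 and -0.20 (SE 0.232, 0.218 and 0.236), while DESeq2 gave -0.73, -0.63 and -0.60. Within run 1 alone the difference from wildtype was -0.59 (SE 0.297) and within run 2 alone -1.03 (SE 0.706). With 1 alteration alone Gclm stood at -0.12 in Gne+/- (SE 0.238) and -0.09 in C3-/- mice (SE 0.241), and by limma-voom at -0.30 and -0.19 (SE 0.222 and 0.204). The difference of the Gne effects with and without C3 was -0.51 for Gclm in edgeR (SE 0.348, adjusted p = 1) and -0.014 by limma-voom (SE 0.311). No dependence of the Gne effect on C3 is thus shown. Double against single alterations is read from the -0.63 and -0.60 above, which did not pass. The last 1000 bases of Gclm lie wholly within Gm17494, a gene on the opposite strand, and reads where annotated genes overlap were not counted, so its counts come from elsewhere in the gene.

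Gclc (ENSMUSG00000032350, chr9:77754535-77794485, plus strand) varied least between mice of run 1, with a coefficient of variation of 17.5% (n = 18). Wildtype mice 1, 2, 4, 5 and 6 measured 77.5, 62.4, 81.5, 112 and 67.5 CPM, and C3-/- mice 1, 2, 5 and 6 measured 62.95, 59.3, 65.03 and 67.4 CPM. In run 2 wildtype mice 7 and 8 measured 56.4 and 52.9 CPM, and C3-/- mice 7, 8 and 9 measured 44.7, 45.2 and 44.5 CPM. The groups overlapped in run 1 and were apart in run 2, as were those of 21.1% of all genes. The log2 fold change of C3-/- against wildtype was -0.32 (SE 0.128, 95% interval -0.58 to -0.05, edgeR adjusted p = 0.889). Gne+/- mice stood at -0.22 (SE 0.127) and Gne+/- C3-/- mice at -0.18 (SE 0.133) against the same wildtype group.

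Thioredoxin reductase 1 (Txnrd1) keeps cytosolic thioredoxin reduced, and sulfiredoxin (Srxn1) restores peroxiredoxins that peroxide has over-oxidised. Srxn1 (ENSMUSG00000032802, chr2:152105516-152111376, plus strand) stood at 58.4, 81.0, 79.4, 77.9 and 40.8 CPM in run 1 wildtype mice 1, 2, 4, 5 and 6. The C3-/- mice 1, 2, 5 and 6 had 82.0, 73.4, 71.0 and 75.5 CPM, inside the wildtype range but for mouse 1. In run 2, wildtype mice 7 and 8 had 10.4 and 25.5 CPM, whereas C3-/- mice 7, 8 and 9 had 45.8, 22.2 and 39.9 CPM. The difference of C3-/- from wildtype was 0.44 (SE 0.207, 95% interval 0.01 to 0.87, edgeR adjusted p = 0.999). It was 0.15 in run 1 alone and 1.01 in run 2 alone (SE 0.214 and 0.38), where wildtype mouse 7 was the lowest library of all, and limma-voom gave 0.24 over both runs (SE 0.17). Gne+/- and Gne+/- C3-/- mice stood at 0.36 (SE 0.203) and 0.32 (SE 0.211) against wildtype.

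Txnrd1 (ENSMUSG00000020250, chr10:82833951-82897712, plus strand) ranged from 39.4 to 147 CPM in run 1, with a median of 80.0 CPM, and from 8.12 to 25.2 CPM in run 2, with a median of 17.4 CPM. Wildtype mice 1, 2, 4, 5 and 6 measured 128, 112, 93.9, 141 and 39.4 CPM and so covered nearly the whole range of run 1. C3-/- mice of run 1 were the most alike, at 76.4 ± 3.76 CPM (SD, n = 4), against 82.8 ± 45.6 CPM in Gne+/- C3-/- mice (n = 4). Its log2 differences lay between -0.17 and 0.16 in the 6 comparisons, with standard errors of 0.276 to 0.401. By limma-voom Txnrd1 stood lower against wildtype, at -0.53 in Gne+/- C3-/- (SE 0.22), -0.40 in C3-/- (SE 0.203) and -0.32 in Gne+/- mice (SE 0.221), and these did not pass either (adjusted p = 0.494, 0.671 and 0.711).

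Haem oxygenase 1 (Hmox1) degrades haem into biliverdin, carbon monoxide and iron, and the quinone reductase NQO1 (Nqo1) removes quinones without forming radicals. Both are classic NRF2 targets. Hmox1 (ENSMUSG00000005413, chr8:75093621-75100589, plus strand) stood at 9.17, 1.45, 8.49, 6.25 and 7.61 CPM in run 1 wildtype mice 1, 2, 4, 5 and 6. For Gne+/- mice 1 to 5 the levels were 5.68, 2.03, 5.02, 12.7 and 3.10 CPM. The highest library, Gne+/- mouse 4, lay outside the wildtype range, and the other 4 lay within it. C3-/- mice measured 4.36 ± 1.71 CPM and Gne+/- C3-/- mice 4.91 ± 0.170 CPM (SD, n = 4 each), the latter the narrowest of the groups. Pairwise log2 differences of Hmox1 lay between -0.52 (C3-/- against wildtype, SE 0.578) and 0.38 (Gne+/- C3-/- against C3-/-, SE 0.595).

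Nqo1 (ENSMUSG00000003849, chr8:107388225-107403206, minus strand) stood at 6.65, 2.00, 5.43, 5.33 and 5.62 CPM in run 1 wildtype mice 1, 2, 4, 5 and 6. The other genotypes of run 1 averaged 2.73 ± 1.54 CPM in Gne+/- (SD, n = 5), 2.78 ± 1.43 CPM in C3-/- (n = 4) and 2.51 ± 0.544 CPM in Gne+/- C3-/- mice (n = 4). In 4 of 5 wildtype mice the level was above that of every mutant library of the run, and wildtype mouse 2 lay among these. In run 2 the wildtype group mean was the lowest, at 1.90 CPM. Wildtype mice 7 and 8 measured 3.05 and 0.746 CPM, and Gne+/- C3-/- mice 7 and 8 measured 3.61 and 5.62 CPM. These 2 genotypes were apart in run 2 for 33.3% of all genes. Gne+/- mice 7 and 8 (4.76 and 1.01 CPM) and C3-/- mice 7, 8 and 9 (5.84, 2.48 and 4.84 CPM) overlapped wildtype. The log2 difference of Gne+/- C3-/- from wildtype was 2.27 higher in run 2 than in run 1 (SE 1.08), which did not pass (edgeR adjusted p = 0.9999). Over both runs Gne+/- mice stood at -0.59 (SE 0.492), C3-/- at -0.32 (SE 0.511) and Gne+/- C3-/- at -0.41 (SE 0.525) against wildtype. With a term for Y-linked expression the same differences were -0.41, -0.076 and -0.0077 (SE 0.494, 0.51 and 0.596), the last 2 near 0. By limma-voom they were -0.18, 0.10 and 0.05, so that 2 of the 3 turned direction there. Y-linked transcripts were below 10 CPM in all wildtype mice of run 1 and above it in both of run 2, and the reverse in C3-/- mice. In the model of differences between runs, 2, 3 and 1 of 17409 genes passed in Gne+/-, C3-/- and Gne+/- C3-/- against wildtype (edgeR). With the Y-linked term 0 passed in each. Genes with an unadjusted p under 0.05 rose from 735 to 1653 in C3-/- against wildtype. In wildtype and C3-/- mice the term follows the run, so the 2 cannot be told apart there. The part of these transcripts in the change of Nqo1 was not itself tested. Intervals of Hmox1 and Nqo1 allowed differences of more than 1 log2 unit in each of the 6 comparisons, the widest of the 10 genes.

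Superoxide is removed in mitochondria by the manganese enzyme SOD2 and in the cytosol by the copper-zinc enzyme SOD1. Sod2 (ENSMUSG00000006818, chr17:13006846-13040063, plus strand) varied most between mice of run 1. Wildtype mice 1, 2, 4, 5 and 6 measured 46.8, 110, 67.5, 46.7 and 20.4 CPM, and Gne+/- mice 1 to 5 measured 111, 113, 42.2, 100 and 21.4 CPM. C3-/- mice 1, 2, 5 and 6 measured 71.0, 43.4, 29.2 and 24.9 CPM, and Gne+/- C3-/- mice 3, 4, 5 and 6 measured 38.4, 60.4, 18.5 and 20.3 CPM. The lowest library of each genotype lay between 18.5 and 24.9 CPM, and the 4 highest libraries were 3 Gne+/- mice and 1 wildtype mouse.

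In run 2 Sod2 lay between 66.4 and 79.5 CPM in all 9 libraries, a coefficient of variation of 6.15% against 61.4% in run 1 (n = 9 and 18). Gne+/- C3-/- mice differed from Gne+/- mice by -0.83 (SE 0.394, 95% interval -1.65 to -0.02, edgeR adjusted p = 0.777). This was -1.20 (SE 0.566) in run 1 alone, and run 2 alone gave means of 70.7 ± 1.40 and 71.7 ± 7.47 CPM (SD, n = 2 and 2). Without the filter on low counts the difference passed at the same size but a smaller SE (-0.83, SE 0.185, edgeR adjusted p = 0.00186). That setting called 306 of 29460 genes in this comparison, against 33 of 17409 in the main fit. By limma-voom and DESeq2 the difference did not pass (-0.66 and -0.83, adjusted p = 0.409 and 0.583).

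Sod1 (ENSMUSG00000022982, chr16:90220754-90226329, plus strand) ranged from 8.39 to 33.0 CPM in run 1 and from 13.95 to 32.2 CPM in run 2. Its highest libraries belonged to 3 genotypes: C3-/- mouse 6 with 33.0 CPM, wildtype mouse 7 with 32.2 CPM and Gne+/- mouse 4 with 25.9 CPM. Log2 differences between genotypes lay between -0.25 and 0.13, with standard errors of 0.262 to 0.377. Of its last 1000 bases 65% lie within Scaf4 on the opposite strand, where reads were not counted, so the values are no measure of its full expression.

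Hydrogen peroxide is broken down by catalase (Cat) in peroxisomes, and glutathione peroxidase 4 (Gpx4), a selenoprotein, reduces lipid peroxides in membranes and guards cells against ferroptosis. Cat (ENSMUSG00000027187, chr2:103453849-103485160, minus strand) averaged 42.1 ± 10.5 CPM in wildtype, 34.2 ± 5.10 CPM in Gne+/-, 36.2 ± 5.41 CPM in C3-/- and 38.0 ± 1.04 CPM in Gne+/- C3-/- mice of run 1 (SD, n = 5, 5, 4 and 4). In run 2 the group means lay between 10.4 and 10.6 CPM. Its differences lay between -0.22 and 0.26, with standard errors of 0.171 to 0.248.

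Gpx4 (ENSMUSG00000075706, chr10:80047166-80056439, plus strand) stood at 7.71, 3.75, 7.76, 10.5 and 12.7 CPM in run 1 wildtype mice 1, 2, 4, 5 and 6. The levels of Gne+/- mice 1 to 5 were 8.52, 16.4, 9.01, 19.1 and 9.65 CPM. The groups overlapped, with the 2 highest libraries in the Gne+/- group. In run 2, wildtype mice 7 and 8 had 55.1 and 46.6 CPM, and Gne+/- mice 7 and 8 had 48.8 and 52.7 CPM. The log2 fold change of Gne+/- against wildtype was 0.39 (SE 0.234, 95% interval -0.09 to 0.88, edgeR adjusted p = 0.878), and limma-voom gave 0.21 (SE 0.225).

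**Figure D2:**
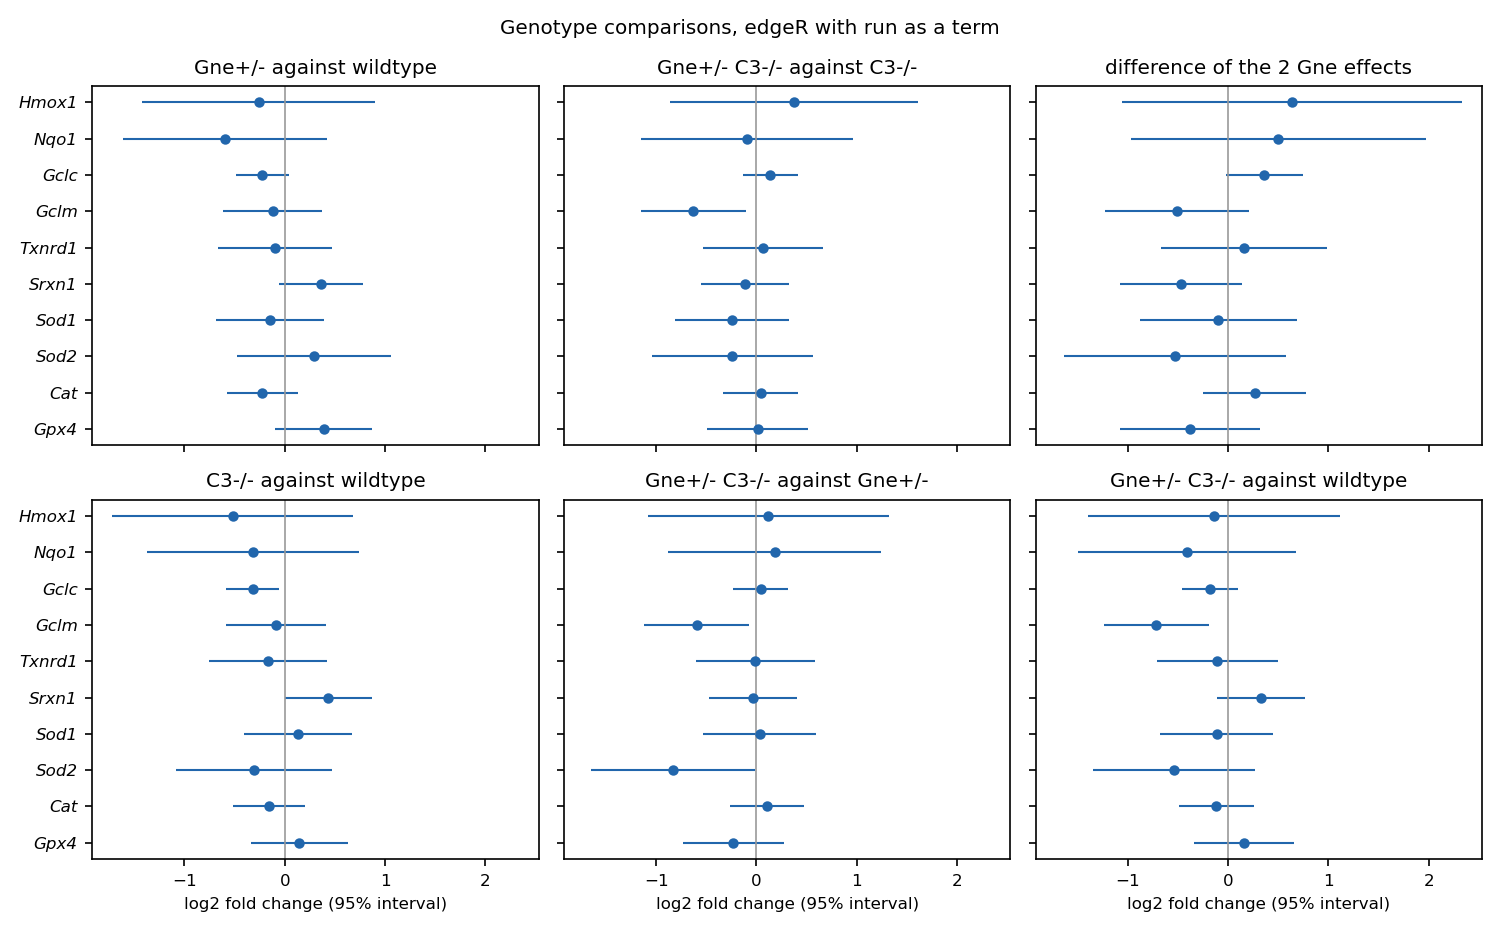
Log2 fold change of each gene in the 6 genotype comparisons, with 95% intervals (edgeR, run as a term, 27 libraries); the vertical line marks no difference. Intervals are narrowest for Gclc and Cat and widest for Hmox1 and Nqo1, and no gene passed after adjustment over 17409 genes.

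Over the 10 genes the median log2 fold change was -0.13 in Gne+/- against wildtype (7 of 10 negative) and -0.04 in Gne+/- C3-/- against C3-/- mice (5 of 10 negative). It was -0.16 in C3-/- (7 of 10 negative) and -0.13 in Gne+/- C3-/- mice (8 of 10 negative) against wildtype, and 0.01 in Gne+/- C3-/- against Gne+/- mice (5 of 10 negative). In the difference of the Gne effects it was 0.03 (5 of 10 negative). Over all 17409 genes these medians lay between -0.013 and 0.005, with 8594 to 9012 genes negative. The largest differences between genotypes among the members were those of Sod2 (-0.83) and Gclm (-0.71).

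Each comparison was also read within the runs. In run 1, none of the 10 genes had groups that did not overlap, in any of the 5 pairwise comparisons; the background was 0.592% of all genes for Gne+/- against wildtype, 2.18% for C3-/- against wildtype, and 2.11%, 2.4% and 2.02% for Gne+/- C3-/- mice set against C3-/-, Gne+/- and wildtype mice. In run 2, with 2 or 3 libraries a group, 2 members were apart in Gne+/- against wildtype (Gclm and Txnrd1; background 31%). It was 2 in Gne+/- C3-/- against C3-/- (Gclc and Gclm; background 23.4%) and 2 in C3-/- against wildtype (Gclc and Gclm; background 21.1%). It was 2 in Gne+/- C3-/- against Gne+/- (Gclm and Gpx4; background 36.2%) and 4 in Gne+/- C3-/- against wildtype (Nqo1, Gclm, Srxn1 and Sod2; background 33.3%). Counts this small out of 10 members do not set them apart from the background. No member was apart in both runs (background 0.0689% to 0.758%). Whether a genotype effect differed between runs was tested for the 10 genes in 5 comparisons, and 0 of these tests passed (edgeR; background 0.0115%, 0%, 0.0172%, 0.00574% and 0.00574% of all genes). Unadjusted, 2 of them fell under 0.05: Gclm in Gne+/- C3-/- against Gne+/- and Nqo1 in Gne+/- C3-/- against wildtype mice. Over all genes the share was 4.53%, 2.43%, 4.22%, 4.15% and 4.38%, in the order of the run 2 counts.

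**Figure D3:**
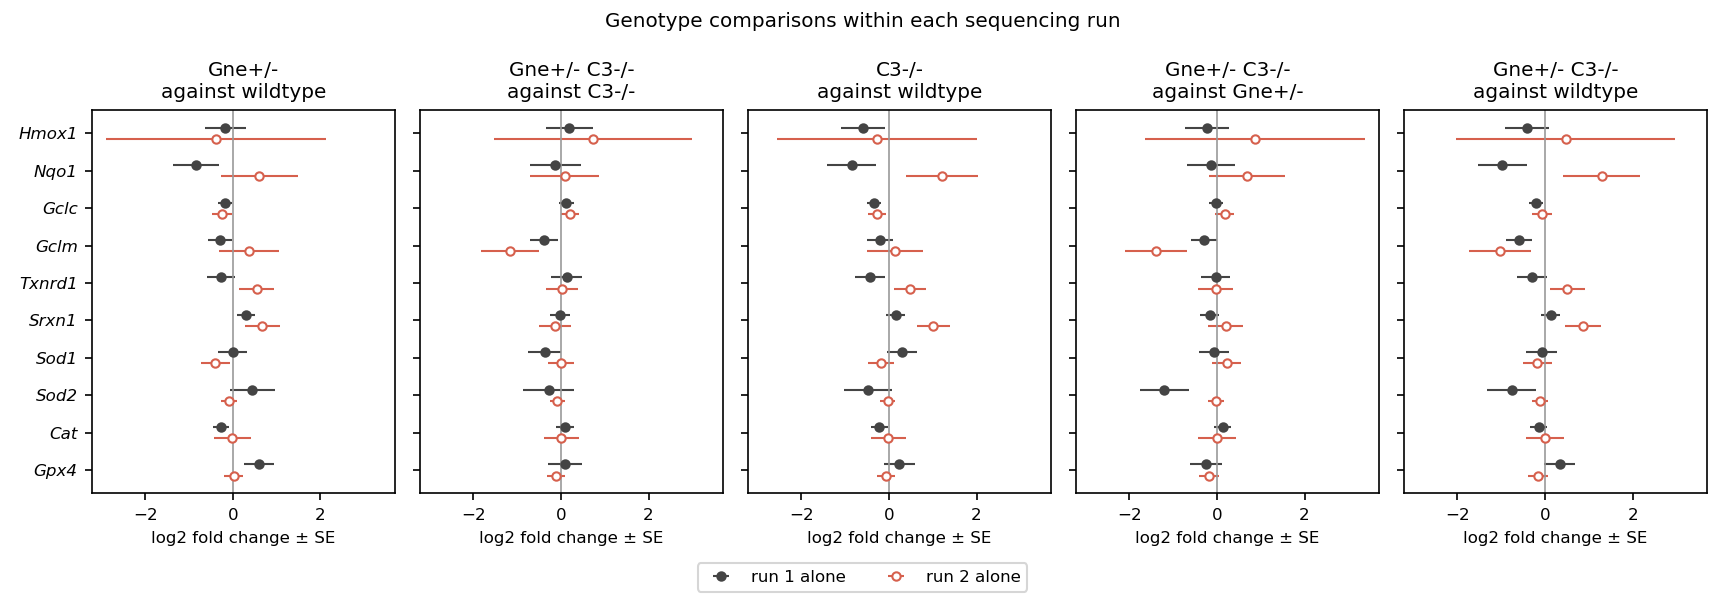
Log2 fold change of each gene in the 5 pairwise comparisons, fitted in run 1 alone (filled) and run 2 alone (open), with bars of 1 SE. Gclm lies to the left in both runs in the 3 comparisons of Gne+/- C3-/- mice, while Nqo1 lies on opposite sides in the 3 comparisons with wildtype.

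The members differed more between runs than between genotypes: the median absolute log2 difference was 1.61 between runs and 0.112 to 0.424 in the genotype comparisons, against 0.871 and 0.162 to 0.279 for all genes. Between run 2 and run 1, 8 of 10 members passed the edgeR threshold, against a background of 59.5% of all genes: 6 were lower (background 29.2%) and 2 higher (background 30.3%). The same number, 8, had an unadjusted p under 0.05 (background 63%). The runs did not overlap for 6 members (background 21.9%): 5 lay lower in all 9 run 2 libraries than in all 18 of run 1 (background 10.6%) and 1 higher (background 11.3%). Each genotype is present in both runs, and apart from the run number the labels give no difference between them.

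Hmox1 ranged from 1.45 to 12.7 CPM in run 1 (median 4.98) and from 0 to 1.01 CPM in run 2 (median 0.303). It was 13.1-fold lower in run 2 (log2 fold change -3.71, SE 0.532, edgeR adjusted p = 2.6e-07). In wildtype mouse 8 it had 0 counts, which allows up to 0.132 CPM (3 counts). Gclm ranged from 25.1 to 82.2 CPM in run 1 and from 1.40 to 5.90 CPM in run 2, a 9.82-fold lower level (-3.30, SE 0.218, adjusted p = 6.5e-15). Gclc, its partner subunit, was 1.43-fold lower (-0.52, SE 0.0999, adjusted p = 3.3e-05), from 59.3 to 112 CPM in run 1 and 35.9 to 57.0 CPM in run 2.

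Txnrd1 was 5.23-fold lower in run 2 (-2.39, SE 0.241, adjusted p = 1.2e-09) and Cat 3.56-fold lower (-1.83, SE 0.144, adjusted p = 4.9e-13). Srxn1 was 2.63-fold lower (-1.39, SE 0.168, adjusted p = 8.6e-09), with an overlap: its highest run 2 library measured 45.8 CPM and its lowest run 1 library 40.8 CPM. Gpx4 went the other way, 4.76-fold higher in run 2 (2.25, SE 0.172, adjusted p = 2.3e-13), from 3.75 to 19.1 CPM in run 1 and 42.3 to 60.0 CPM in run 2. Sod1 was 1.40-fold higher (0.49, SE 0.197, adjusted p = 0.0326), a call that did not hold with a term for Y-linked expression (0.44, adjusted p = 0.0625). It was also lost without wildtype mouse 7 (0.37, adjusted p = 0.123), without Gne+/- mouse 7 (0.45, adjusted p = 0.0698) and without Gne+/- C3-/- mouse 8 (0.46, adjusted p = 0.0574).

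Sod2 (0.57, SE 0.285, adjusted p = 0.088) and Nqo1 (0.17, SE 0.391, adjusted p = 0.724) did not pass, though Sod2 passed by limma-voom (0.68, adjusted p = 0.00336), by DESeq2 (0.62, adjusted p = 0.0465) and without the filter on low counts (0.59, adjusted p = 4.4e-05). It also passed without wildtype mouse 2 (0.66, adjusted p = 0.0385) and without C3-/- mouse 1 (0.68, adjusted p = 0.0412). Marker sums of 8 retinal and neighbouring cell types were set beside the runs. Those of rods (10 of 10 found) are given above and did not overlap, nor did those of Mueller glia (10 of 10), at 5404 to 7727 CPM in run 1 and 3025 to 4317 CPM in run 2. Those of fibroblasts and sclera (7 of 7) spanned 42.7 to 114 and 16.0 to 23.4 CPM, and those of pigment epithelium and melanocytes (10 of 10, Lrat at 0) 207 to 794 and 63.4 to 267 CPM. Those of the lens (12 of 12) spanned 74.5 to 2894 and 41.5 to 124 CPM. The sums of these last 2 lists overlapped between runs, and so did those of endothelium (7 of 7) at 418 to 553 and 346 to 466 CPM, microglia and macrophages (10 of 10) at 34.7 to 86.2 and 30.25 to 46.4 CPM, and erythrocytes (5 of 5, Alas2 at 0) at 9.26 to 686 and 11.2 to 85.4 CPM. The part of these cell types in the run difference was not tested.

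**Figure D4:**
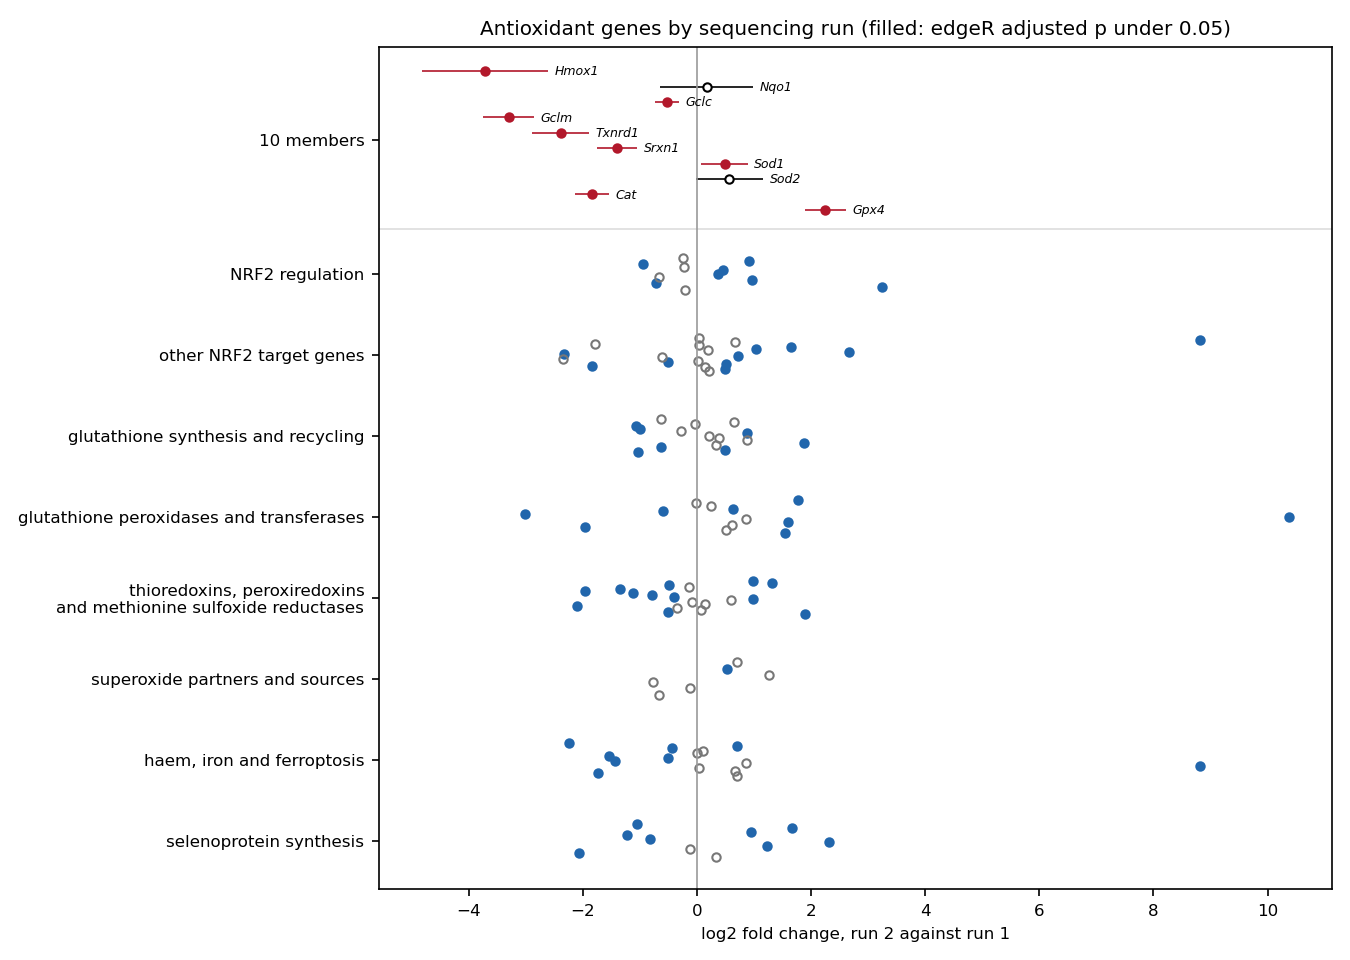
Log2 fold change of run 2 against run 1 for the 10 genes (top, with 95% intervals) and for 102 other antioxidant genes grouped by list (points; filled where the edgeR adjusted p is under 0.05). The 10 genes span -3.71 (Hmox1) to 2.25 (Gpx4), and each list has genes on both sides of 0; Gstp1, far right, averaged 0 CPM in run 1, so its fitted value is no measure of size.

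The wider pathway was read from 8 lists with 118 genes, of which 102 were tested. In each of the 6 genotype comparisons 0 of the 102 passed in edgeR, and 4, 0, 2, 2, 7 and 3 had an unadjusted p under 0.05, in the order given above. The smallest adjusted p was 0.447, of Selenot, a selenoprotein of the endoplasmic reticulum, at -0.43 in Gne+/- C3-/- against wildtype mice (SE 0.135). Of the 102 genes 29 were higher and 30 lower in run 2, shares near the background of 30.3% and 29.2% of all genes, and the medians in the genotype comparisons lay between -0.08 and 0.01. From each list the 2 genes with the smallest unadjusted p are named here.

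Among 11 tested regulators of NRF2, 0 passed, with the related factor Nfe2l1 at -0.32 (SE 0.161) and the KEAP1-binding autophagy receptor Sqstm1 at 0.33 (SE 0.174), both in Gne+/- C3-/- against Gne+/- mice. Nfe2l2, chosen after its values were seen as the gene of NRF2 itself, averaged 37.0 CPM in run 1 and 32.0 CPM in run 2 (-0.20, SE 0.119, adjusted p = 0.145). Keap1, chosen likewise, averaged 1.62 and 12.5 CPM (3.24, SE 0.444, adjusted p = 1.2e-07). Of 20 other NRF2 target genes 0 passed by genotype, with the cystine importer Slc7a11 at -1.15 in Gne+/- C3-/- against Gne+/- mice (SE 0.427) and Osgin1 at -3.07 in Gne+/- against wildtype mice (SE 1.29) on a mean of 0.849 CPM in run 1.

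Of 15 genes of glutathione synthesis and recycling 0 passed, with the glutaredoxin Glrx3 at 0.35 in Gne+/- C3-/- against C3-/- mice (SE 0.191) beside Slc7a11, which is in this list too. Of 13 glutathione peroxidases and transferases 0 passed. The transferase gene Gstm5 stood at 0.50 in Gne+/- C3-/- against wildtype mice (SE 0.277), and the microsomal Mgst3 at -1.15 in the difference of the Gne effects (SE 0.543). Of 18 thioredoxins, peroxiredoxins and methionine sulfoxide reductases 0 passed, with Txnl1 at -0.33 (SE 0.128) and the stress-induced Sesn3 at -0.36 (SE 0.143), both in Gne+/- against wildtype mice.

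Among 6 superoxide partners and sources 0 passed, with the extracellular dismutase Sod3 at -0.68 in Gne+/- C3-/- against wildtype mice (SE 0.47) and the NADPH oxidase Nox1 at 0.61 in the difference of the Gne effects (SE 0.406). Of 14 genes of haem, iron and ferroptosis 0 passed. Gch1, which starts tetrahydrobiopterin synthesis, stood at -2.72 in Gne+/- C3-/- against Gne+/- mice (SE 1.03). Its level was low and uneven, at 2.18 ± 2.69 CPM in run 1 and 1.25 ± 1.25 CPM in run 2 (SD over all libraries of the run). Ncoa4, the receptor for ferritin breakdown, stood at -0.43 in C3-/- against wildtype mice (SE 0.169). Of 10 genes of selenoprotein synthesis and selenoproteins 0 passed, with Selenof at -0.59 (SE 0.234) in Gne+/- C3-/- against Gne+/- mice. Of these 10 genes 2, 9, 8, 7, 10 and 8 were negative in the 6 comparisons, in the order given above, which share groups. Over all 17409 genes 8594 to 9012 were negative. Among the 8 lists this split was the most uneven in Gne+/- C3-/- against Gne+/- mice. For the 20 other NRF2 target genes the numbers were 10, 10, 9, 13, 11 and 13. No test was made of any list.

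Variation between mice was compared after removing the means of genotype and run, as Pearson's r of log2 CPM over 27 libraries. These values are descriptions, since the points share libraries, depth and scaling. Txnrd1 and Srxn1 varied together (r = 0.70; 0.70 over the 18 libraries of run 1), and so did Srxn1 and Sod2 (0.55; 0.76 in run 1). Gclm ran against Sod2 (-0.59; -0.62 in run 1), while the partner subunits Gclc and Gclm had an r of 0.24. The 2 genes most like each member, among genes with a mean of at least 10 CPM, were Abhd16a and Abhd8 for Sod2 (0.97 and 0.96), Slc32a1 and Slc38a2 for Txnrd1 (0.87 and 0.85), and Ndufaf8 and Noct for Srxn1 (0.85 and 0.84). They were Cox6c and Topors for Gclc (0.80 and 0.76), Abca8a and Pdhb for Sod1 (0.80 and 0.77), and Pcbd1 and Mtus1 for Gclm (0.77 and 0.76). The remaining members reached at most 0.70: Gps2 and Qars for Gpx4 (0.70 and 0.69), Prmt9 and Fbxo6 for Cat (0.69 and 0.68), Ube2g2 and Uaca for Nqo1 (0.68 each), and Zfp710 and Usp5 for Hmox1 (0.67 and 0.66). Over the 18 libraries of run 1 those of Cat fell to 0.50 and 0.42, and those of the other members lay between 0.66 and 0.97. Each is the highest among many genes compared, which by itself raises r.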

How the data were processed

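Retinal RNA was sequenced with a 3′ kit (QuantSeq) from 100 ng of total RNA per library, per the labels' protocols. The values deposited by the authors are raw, unnormalized counts per gene. STAR 2.7.3a was the aligner, and Subread 2.0.0 and the build GRCm38 (mm10) are named, per the submitters' processing notes. Counting was done with featureCounts 2.0.3 on the Ensembl release 101 annotation, over exon and whole-gene features, with no strand setting and without assigning reads that overlap several genes, per the file headers. Such reads are lost and intronic reads count. The series table equalled the single files in 27 of 27 libraries, and 55141 of 55487 identifiers had a symbol.

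Counts were fitted in R 4.3.3 with edgeR 4.0.16 (filterByExpr by group with a minimum count of 10, TMM, robust quasi-likelihood test, genotype and run as terms, 22 residual degrees of freedom, common biological coefficient of variation 55.1%). Adjustment followed Benjamini and Hochberg. Intervals use the t distribution at 95% with the 22 residual degrees of freedom of the main fit. The p-values use edgeR's moderated degrees of freedom, so the 2 can differ near the threshold. A model of 8 means tested whether effects differ between runs. Log2 CPM for correlations used a prior count of 2. Each library is a mouse of its own, per the labels. The members and lists were chosen with earlier results of these data known. Named genes are all members, the 2 genes of each list with the smallest p over the 6 comparisons, and the 2 genes most like each member. The procedure was tested on simulated data. Other settings were limma-voom (limma 3.58.1) with quality weights, DESeq2 1.42.0, RLE factors, a filter of over 1 CPM in 6 or more libraries or none, fits with neither robust estimation nor (separately) the run term, each run by itself, a block for the mouse number, a term for Y-linked expression, and leaving out each library.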

Additional observations from a re-analysis of the deposited data

Results flagged for a closer look

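In 4 of 40 sets of run 1 libraries (10 genes in 4 genotypes), 1 library stood far from the rest of its group by Dixon's gap; chance flags about 1 in 20 groups. Nqo1 measured 1.996 CPM in wildtype mouse 2, below the other 4 wildtype libraries. Sod1 measured 22.89 CPM in wildtype mouse 5, above the others. Cat measured 25.43 CPM in Gne+/- mouse 1, below the others, and 44.33 CPM in C3-/- mouse 6, above them.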

How the results depend on the processing

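Under the alternatives, 0 members passed in the 6 genotype comparisons, with 1 exception: without the filter on low counts 1 member, Sod2, passed in Gne+/- C3-/- against Gne+/- mice. Leaving out each library in turn gave 0 members in each. Between runs 7 to 9 members passed, where 59.5% of all genes passed in the main fit. Of 660 refits of members' genotype differences other than leaving out a library, 47 moved by more than 1 standard error (29 of them with run 2 alone) and 42 changed sign; of 1620 that left out a library, 2 moved and 54 changed sign. None of these had passed. Over all genes, the counts of DESeq2 were 8, 1, 0, 63, 87 and 56 (order as above), against 1, 1, 0, 29, 33 and 27. Limma-voom gave 1, 1, 0, 72, 59 and 47, no filter 72, 9, 30, 91, 306 and 118, no run term 0, 0, 0, 13, 13 and 13, and run 2 alone 1, 5, 4, 28, 11 and 15. For the difference between runs of a genotype effect, leaving out a library gave 0 to 205 genes over all genes and 0 among the members. Mouse numbers were not treated as pairs. Of 31 pairs of libraries with the same number 5 had correlated deviations above 0.1 (range -0.0578 to 0.267), and 9 of 26 libraries correlated best with their own number. In groups of 2 libraries the deviations mirror each other, and no rate by chance was worked out, so this check does not exclude a pairing. With the mouse number as a block 0 members passed. Gclm in Gne+/- C3-/- mice then stood at -0.89 against wildtype (edgeR adjusted p = 0.1). It was -0.86 against C3-/- and -0.84 against Gne+/- mice (edgeR adjusted p = 0.999 and 0.109). Sod2 stood at -0.39 in Gne+/- C3-/- against Gne+/- mice (adjusted p = 1). Low counts limit what can be seen of Hmox1, Nqo1 and, in run 2, Gclm.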
